A study of Drosophila melanogaster with 288 samples.

Results

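Germ plasm and PIWI-interacting RNA (piRNA) genes were followed through embryogenesis of Drosophila melanogaster in single embryos. The 8 genes were chosen by name: vasa (vas), tudor (tud), polar granule component (pgc) and germ cell-less (gcl) for the germ plasm, and aubergine (aub), piwi, Argonaute 3 (AGO3) and spindle-E (spn-E) for the piRNA pathway. The choice was made with earlier results of these data known. They are 8 of the 17698 genes in the count table, and all 8 were among the 9606 genes kept at a mean above 1 cpm (the count of a gene per 1000000 counts on protein-coding genes of that sample). Each sample was 1 egg of the strain W1118, without other allele or treatment, collected from 4 cages that the labels do not tie to samples. The labels give 8 age windows, from 2 to 3 h (E1) through 5 to 6 h (E2), 8 to 9 h (E3), 11 to 12 h (E4), 14 to 15 h (E5), 17 to 18 h (E6) and 20 to 21 h (E7) to 23 to 24 h (E8). Of 288 samples, 250 passed quality control. They were split by multidimensional scaling, with the 8 genes and the related genes below left out of it. A small cluster of 97 samples of all ages was set apart, and the other 153 samples are called developing embryos here. The split did not require that these 153 follow the order of the stages. The study took a small cluster that it delimited itself for unfertilized eggs; the cluster here was rebuilt from the deposited counts, and its members and number are not those of the study. The developing embryos numbered 11, 24, 27, 14, 21, 18, 24 and 14 from E1 to E8, and the small cluster 25, 10, 9, 12, 5, 4, 9 and 23. Of the 153 developing embryos, 129 resembled the stage of their label more than any other stage. These are called own-stage embryos below, and they numbered 8, 22, 25, 14, 15, 17, 18 and 10 from E1 to E8.

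The germ plasm is a specialised cytoplasm at the posterior pole of the fly egg. It is assembled by the mother from RNAs and proteins, and the nuclei that enter it become the pole cells, the precursors of the germ line. PIWI proteins loaded with piRNAs silence transposons, in the nucleus by chromatin and in the cytoplasm by cleavage of transposon RNA, and mothers deposit both proteins and piRNAs in the egg. Each sample here was a whole embryo, and the cells from which these RNAs came were not measured, so that fewer cells of a type and less RNA per cell cannot be told apart in the values below.

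BRB-seq barcodes the RNA of each sample and reads only the 3′ end of transcripts, so a long and a short RNA give the same number of counts and no value was divided by length. The depth on protein-coding genes ranged from 377740 to 24787342 counts in developing embryos and from 323298 to 22026248 in the small cluster, and the stage medians were lowest at E8 in developing embryos, at 1850355, and at E6 in the small cluster, at 651240. A value of 0 in a shallow sample therefore limits the level less than one in a deep sample. The samples were checked against 9 markers of zygotic development (ftz, eve, en, wg, elav, repo, Mhc, Act57B and roX1). Their summed level had stage medians of 569.2 to 6787 cpm in developing embryos and 65.54 to 195.3 cpm in the small cluster. The ranges overlapped, with the highest cluster sample, of E2, at 5667 cpm. In 6 developing samples the sum was under 200 cpm, 4 of them at E7, 1 at E3 and 1 at E8. The sum of 7 follicle cell and eggshell markers had a median of at most 1.423 cpm in any stage of either set, and each of the 7 was at 0 in at least 133 of the 250 samples.

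The genes lie on 4 chromosome arms, with positions from Ensembl release 115 on BDGP6, the assembly that the study also used. vas (FBgn0283442) lies on 2L from 15061656 to 15074311, aub (FBgn0000146) on 2L from 10997819 to 11001476 and piwi (FBgn0004872) on 2L from 10982205 to 10987420. tud (FBgn0003891) lies on 2R from 21183322 to 21192913, pgc (FBgn0016053) on 2R from 22330200 to 22332813 and gcl (FBgn0005695) on 2R from 8724258 to 8728999. AGO3 (FBgn0250816) lies on 3L from 23554593 to 23689640 and spn-E (FBgn0003483) on 3R from 15837419 to 15844415. The last 1000 exonic bases, where 3′ reads fall, overlap a gene on the other strand over 38.5% for pgc (T3dh), 17.3% for piwi (SCAR), 7.9% for aub (TTLL4A) and 3.6% for gcl (CG30356), and over no base for vas, tud, AGO3 and spn-E. Outside that stretch vas shares 563 exonic bases with solo, a gene on the same strand. Whether the counting used strand is not given in the sources used here, and the part of these neighbours in the counts was not tested.

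**Figure D1:**
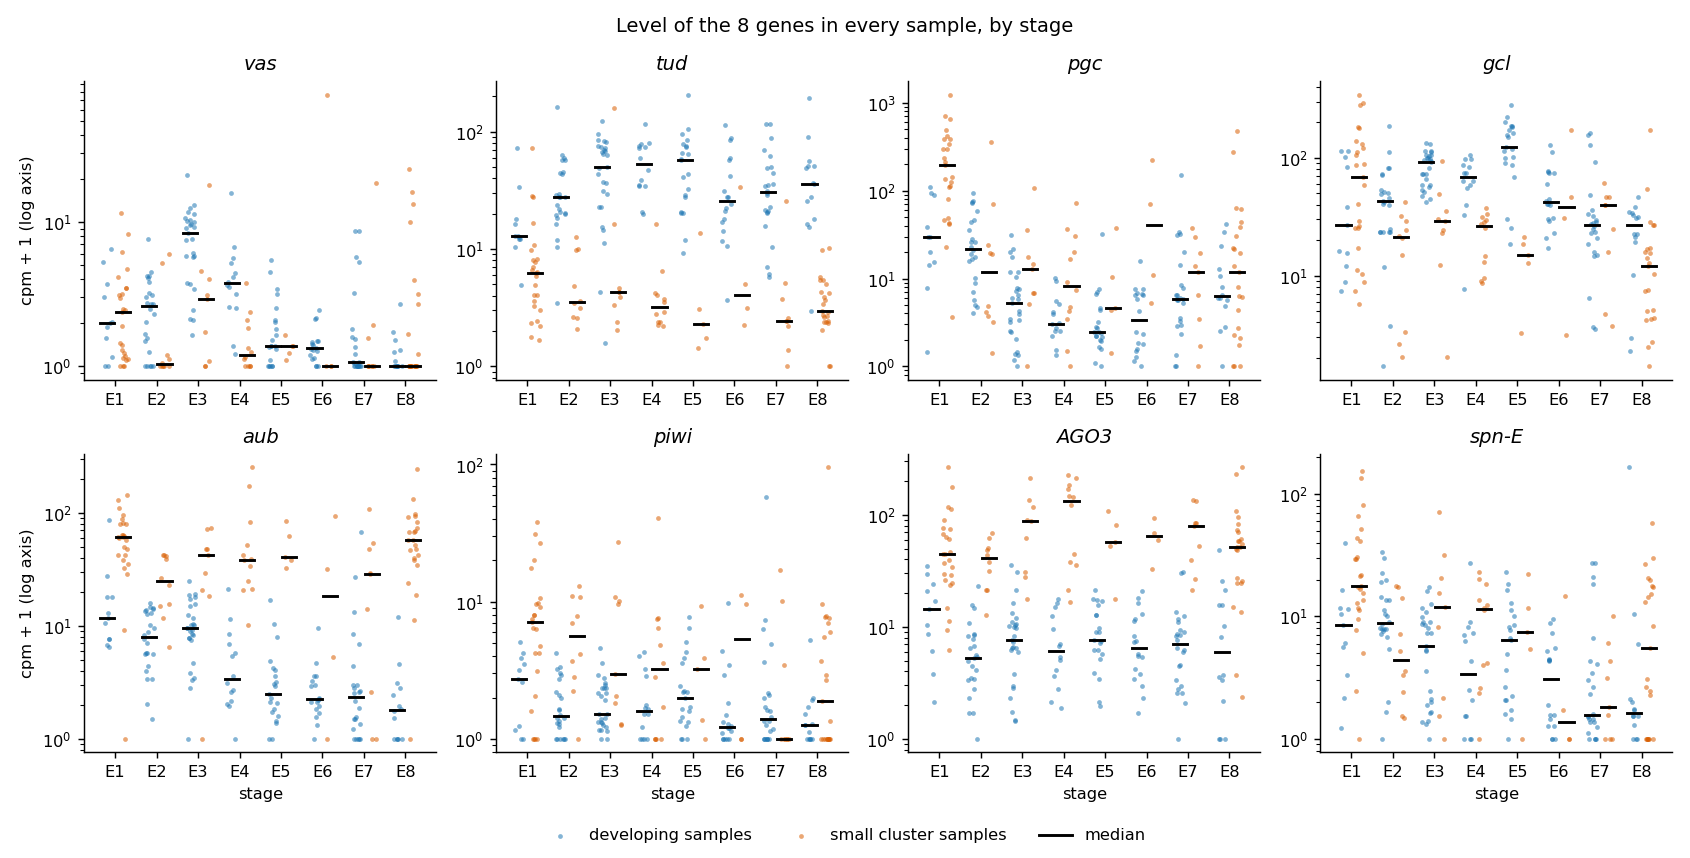
Level of each of the 8 genes in every sample that passed quality control, as cpm + 1 on a log axis against stage; blue points are developing embryos, orange points the small cluster, and black bars the medians. The aub and AGO3 medians of the small cluster lie above those of developing embryos at every stage and the tud medians below, while pgc in the small cluster falls from a median of 195.8 cpm at E1 to 10.99 cpm at E8.

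The vas gene encodes a DEAD-box RNA helicase of the germ plasm and of the perinuclear germ granules, the nuage. It was at or near the detection floor in most developing embryos: 34 of 153 had no count, and the sum over all of them was 2710 counts. The level per embryo had a lowest, median and highest value of 0, 0.9881 and 5.504 cpm at E1, of 0, 1.601 and 6.581 cpm at E2 and of 0.6618, 7.405 and 20.18 cpm at E3. E3 was the only stage beside E4 at which every embryo had a count, and 15 of its 27 embryos were above all 24 of E2. By edgeR's quasi-likelihood test vas rose from E2 to E3 by 1.53 ± 0.49 (SE) on the log2 scale (adjusted p = 0.00934), with a higher median at E3 in 3 of the 4 libraries, but did not pass without the library E2 (1.35, adjusted p = 0.0975). The median was then 2.753 cpm at E4, 0.3857, 0.3328 and 0.06562 cpm over the next stages, and 0 at E8, where 8 of 14 embryos had no count. The step from E4 to E5 was a fall of 1.68 ± 0.61 on the log2 scale (adjusted p = 0.025), which did not pass without the single E4 embryo with the most vas (−1.40, adjusted p = 0.0597), nor without the library E2 (−1.47, adjusted p = 0.122) or E3 (−1.28, adjusted p = 0.113). Nor did it pass in limma (−0.47, adjusted p = 0.0954) or after thinning to 300000 counts (−1.18, adjusted p = 0.16). It also did not pass with own-stage embryos (−1.53, adjusted p = 0.0513) or with the small cluster pooled in (−1.13, adjusted p = 0.168). In the order of the stage medians, E3, E4, E2 and E1 did not differ from one to the next beyond their spread, and E1 was above E5 (edgeR adjusted p = 0.0301).

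The tud gene encodes the scaffold protein Tudor, which binds methylated Aubergine and builds polar granules. Every developing embryo had counts of it. At E1 its 11 embryos had a lowest, median and highest level of 3.955, 11.86 and 72.19 cpm, at E5 the 21 embryos 8.176, 56.86 and 206.4 cpm, and at E8 the 14 embryos 1.982, 35.09 and 194.6 cpm. The medians in between were 26.62, 49.55 and 52.26 cpm at E2, E3 and E4 and 24.94 and 29.57 cpm at E6 and E7, so that E1 was the lowest stage. No single step from one stage to the next passed the test, and no pair of neighbours in the order of the 8 medians differed beyond its spread. Against E1, E8 was higher by 1.08 ± 0.44 on the log2 scale (adjusted p = 0.0306, edgeR's quasi-likelihood test), with 13 of 14 embryos of E8 above the median of E1. Without the E8 embryo with the most tud, at 194.6 cpm, the difference was 0.91 ± 0.44 and did not pass (adjusted p = 0.069), nor did it without the library E1_1 (0.94, adjusted p = 0.0932) or E1_2 (0.92, adjusted p = 0.105).

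The pgc gene encodes a small protein that keeps transcription silent in the pole cells. In developing embryos its lowest, median and highest levels were 0.4475, 28.54 and 110.2 cpm at E1, 3.074, 20.93 and 93.93 cpm at E2, and 0, 4.209 and 29.94 cpm at E3. All but 1 of the 27 embryos of E3 were below the median of E2, and 12 were below every embryo of E2. The fall from E2 to E3 was 2.34 ± 0.49 on the log2 scale, 5.07-fold (adjusted p = 4.48e-05, edgeR's quasi-likelihood test), and it passed under every alternative tried. The median of E3 was below that of E2 within each of the 4 libraries, at 3.243 against 21.97 cpm in E1_1, 0.4182 against 6.45 in E1_2, 13.76 against 45.87 in E2 and 1.979 against 17.93 in E3 (libraries carry names that resemble stages). From E4 to E8 the medians were 2.073, 1.443, 2.364, 4.87 and 5.327 cpm.

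The gcl gene encodes a BTB-domain protein that the pole cells need to form, an adaptor for degradation of the receptor Torso. It was counted in every developing embryo. At E3 its lowest, median and highest levels were 40.96, 91.54 and 133.6 cpm, at E4 6.684, 68.44 and 105.7 cpm, at E5 17.62, 121.8 and 277.9 cpm and at E6 16.23, 41.06 and 128.8 cpm. The level was highest at E5, where 13 of 21 embryos were above all 14 embryos of E4 and where 17 of 18 embryos of E6 were below the median. The rise from E4 to E5 was 1.23 ± 0.35 on the log2 scale (adjusted p = 0.00335) and the fall from E5 to E6 1.07 ± 0.33 (adjusted p = 0.0332, edgeR's quasi-likelihood test for both). The rise was seen in the medians of all 4 libraries but did not pass without the library E1_1 (1.05, adjusted p = 0.0811). The fall did not pass under 6 of 15 alternative scalings, tools and sample choices, among them DESeq2's size factors (adjusted p = 0.0671), nor without the E5 embryo with the most gcl (−1, adjusted p = 0.0587). The other medians were 25.69 and 41.74 cpm at E1 and E2 and 25.94 and 25.84 cpm at E7 and E8.

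The aub gene encodes a cytoplasmic PIWI protein that is loaded with piRNAs in the nuage and is carried into the germ plasm. Its lowest, median and highest levels in developing embryos were 5.434, 10.62 and 85.62 cpm at E1, 0, 8.463 and 23.97 cpm at E3 and 0, 0.8139 and 11.03 cpm at E8. At E8, 13 of 14 embryos were below every embryo of E1, and 5 had no count. The difference of E8 from E1 was a fall of 3.22 ± 0.69 on the log2 scale, 9.3-fold (adjusted p = 3.77e-05, edgeR's quasi-likelihood test). The medians of the stages from E2 were 6.922, 8.463, 2.351, 1.487, 1.231 and 1.348 cpm up to E7, and none of the steps between consecutive stages up to E6 passed by itself.

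The AGO3 gene encodes the partner of Aubergine in the ping-pong cycle, in which each cleaves RNAs that give rise to the piRNAs of the other. Its lowest, median and highest levels were 1.119, 13.53 and 34.31 cpm at E1 and 0, 4.324 and 22.29 cpm at E2. Of the 24 embryos of E2, 21 were below the median of E1, and the ranges overlapped. The fall was 1.79 ± 0.48 on the log2 scale (adjusted p = 0.00709, edgeR's quasi-likelihood test). After E2 the medians lay between 4.939 and 6.681 cpm, and no later step and no later pair of neighbours in the order of the medians passed. The call depended on the libraries: without the library E1_1, which holds 1 of the 11, it was a fall of 1.63 that did not pass (adjusted p = 0.089), and without the library E2 a fall of 1.73 (adjusted p = 0.109).

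The piwi gene encodes the nuclear PIWI protein, which directs heterochromatin to transposons, and is known to act in somatic cells of the ovary as well as in the germ line. It was near the floor in developing embryos, with 1517 counts over all 153 and stage medians of 0.219 to 1.712 cpm. Only 1 developing embryo was above 10 cpm, an E7 embryo at 56.71 cpm with 41 counts. The spn-E gene encodes a DExH-box helicase with a Tudor domain, needed for the ping-pong cycle. Its lowest, median and highest levels were 0, 7.864 and 32.53 cpm at E2 and 0, 4.691 and 16.25 cpm at E3. The fall from E2 to E3 was 1.58 ± 0.58 on the log2 scale (adjusted p = 0.023, edgeR's quasi-likelihood test). It did not pass under 7 of the 15 alternatives or without the E2 embryo with the most spn-E (−1.29, adjusted p = 0.0676). At E7 and E8 its medians were 0.5777 and 0.6258 cpm, the lowest of the 8 stages. At E8, 13 embryos lay between 0 and 9.478 cpm and 1 was at 164.7 cpm, from 77 counts. That embryo, of the library E2 with 467513 counts, also had the most tud of its stage. With it the fitted difference of E8 from E1 in spn-E was 0.38 ± 0.87 (adjusted p = 0.736), in the other direction from the medians, and without it the difference was −2.29 ± 0.81 (adjusted p = 0.0123), an embryo left out after its value was seen.

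**Figure D2:**
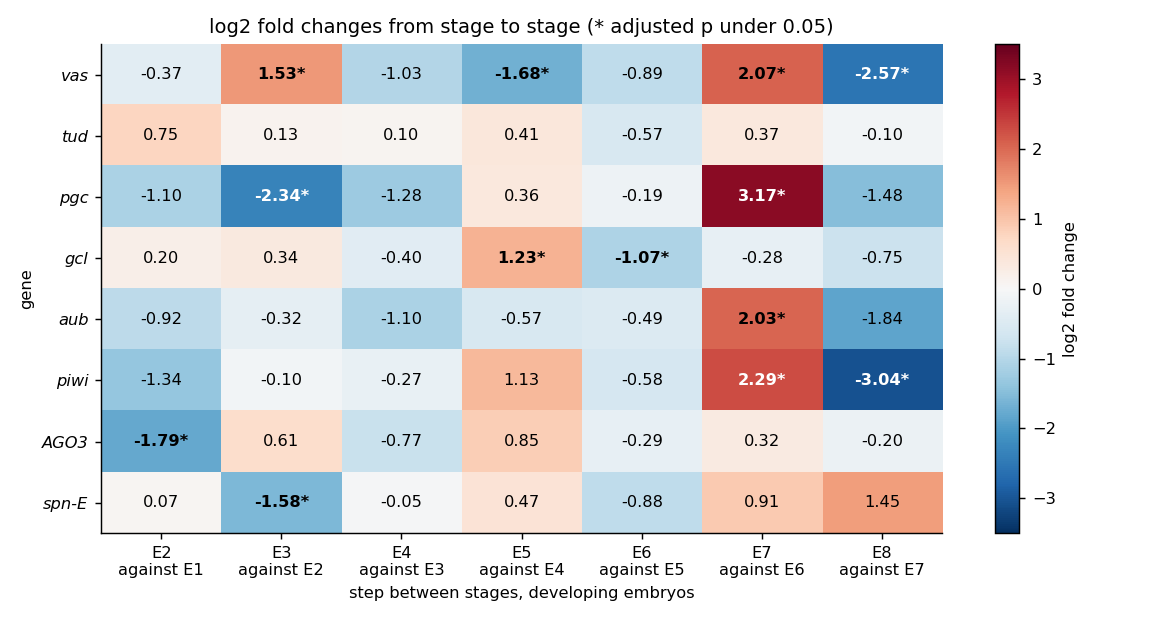
The log2 fold change of each gene for the 7 steps between consecutive stages in developing embryos, from edgeR's quasi-likelihood test; the number in each cell is the fold change, colour gives its direction and size, and bold values with an asterisk have an adjusted p under 0.05. The marked steps are spread over 6 of the 7 columns, with 4 genes higher from E6 to E7 and none marked from E3 to E4.

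The calls of the 8 genes at each step were counted beside the share called over the whole table. Among so few genes a single call moves the share by much. From E1 to E2, 1 fell, where 8.06% of all 9606 genes were called, 1.56% higher and 6.5% lower. From E2 to E3, 1 rose and 2 fell, where 37.9% of all genes were called in either direction, 13.9% higher and 24% lower. From E3 to E4, 0 were called by edgeR's quasi-likelihood test, where 24.4% of all genes were, 15.9% higher and 8.52% lower. At an unadjusted p under 0.05, 2 were lower at that step, aub and pgc, and DESeq2 called 0 and limma 2. From E4 to E5, 1 rose and 1 fell, where 32.5% were called, 21.7% higher and 10.9% lower. From E5 to E6, 1 fell, where 4.79% were called, 1.79% higher and 3% lower. From E6 to E7, 4 rose, where 15.3% rose and 6.19% fell, 21.4% in all. From E7 to E8, 2 fell, where 1.31% rose and 1.69% fell, 3% in all. The number called higher and lower over all genes depended on the scaling: with DESeq2's size factors it was 2042 and 1493 in place of 1334 and 2304 from E2 to E3, 1840 and 544 in place of 1525 and 818 from E3 to E4, and 170 and 143 in place of 126 and 162 from E7 to E8. In limma on quantile-normalised values it was 304 and 355 from E1 to E2, 1466 and 1392 from E2 to E3, 1189 and 1412 from E3 to E4 and 1789 and 2309 from E4 to E5. At the later steps limma gave 675 and 429 from E5 to E6, 912 and 1252 from E6 to E7 and 110 and 65 from E7 to E8.

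By edgeR's quasi-likelihood test, 4 genes were called higher at E7 than at E6 (adjusted p from 3.99e-05 to 0.0185). The fitted rises were 3.17 ± 0.61 for pgc, 2.29 ± 0.76 for piwi, 2.07 ± 0.61 for vas and 2.03 ± 0.55 for aub on the log2 scale. The medians of E6 and E7 were 2.364 and 4.87 cpm for pgc, 0.219 and 0.3987 for piwi, 0.3328 and 0.06562 for vas, and 1.231 and 1.348 for aub. For vas the medians went in the other direction from the fit: 15 of the 24 E7 embryos were below the E6 median, and 11 had no count. High values sat in few of the 24 embryos of E7: 5 were above every E6 embryo in pgc, 5 in vas, 3 in aub and 1 in piwi. In pgc the highest was at 150.2 cpm with the others up to 32.82 cpm, in piwi at 56.71 with the others up to 6.355, in aub at 66.96 with the others up to 26.18, and in vas at 7.716 with the next at 7.65. Without its own highest E7 sample, pgc rose by 2.22 (adjusted p = 0.00171) and aub by 1.57 (adjusted p = 0.0286), while vas had 1.22 (adjusted p = 0.163) and piwi 0.69 (adjusted p = 0.465) by edgeR's quasi-likelihood test. The rise of aub did not pass in limma (0.70, adjusted p = 0.14), after thinning to 300000 counts (0.99, adjusted p = 0.294) or with the small cluster pooled in (1.41, adjusted p = 0.132), and that of pgc did not pass with the cluster pooled in (1.25, adjusted p = 0.212). Neither vas nor piwi passed in limma (0.36, adjusted p = 0.218, and 0.35, adjusted p = 0.252) or after thinning (adjusted p = 0.304 and 0.117). Nor did they pass with own-stage embryos (adjusted p = 0.0778 and 0.394) or with the cluster pooled in (adjusted p = 0.851 and 0.187). With DESeq2's Wald test piwi had 0.53 (adjusted p = 0.566). Without single libraries, vas did not pass without E1_2 (1.70, adjusted p = 0.0729) or E2 (1.65, adjusted p = 0.21), nor piwi without E2 (2.75, adjusted p = 0.0809) or E3 (0.62, adjusted p = 0.54).

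The 4 E7 samples with under 200 cpm of zygotic markers, at 56.22, 110.7, 129.7 and 177.1 cpm, included the highest sample for pgc, for piwi and for vas, whereas the highest for aub had 2094 cpm of these markers. The next lowest E7 sample was at 1657 cpm, and the lowest of E6 at 1843. Without the 6 developing samples under 200 cpm, pgc still rose, by 2.00 ± 0.569 (adjusted p = 0.00975), and aub, by 1.77 ± 0.561 (adjusted p = 0.0222), while vas (1.37, adjusted p = 0.125) and piwi (0.48, adjusted p = 0.653) did not pass. With the same samples left out, neither of the falls from E7 to E8 passed: vas had −2.57 with all samples (adjusted p = 0.0338) and −1.78 without them (adjusted p = 0.156), and piwi −3.04 (adjusted p = 0.0316) and −1.23 (adjusted p = 0.394). With all samples, the fall of vas also did not pass when any 1 of the 4 libraries was left out (adjusted p from 0.0521 to 0.15), nor that of piwi without E2 (adjusted p = 0.113) or E3 (adjusted p = 0.549).

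**Figure D3:**
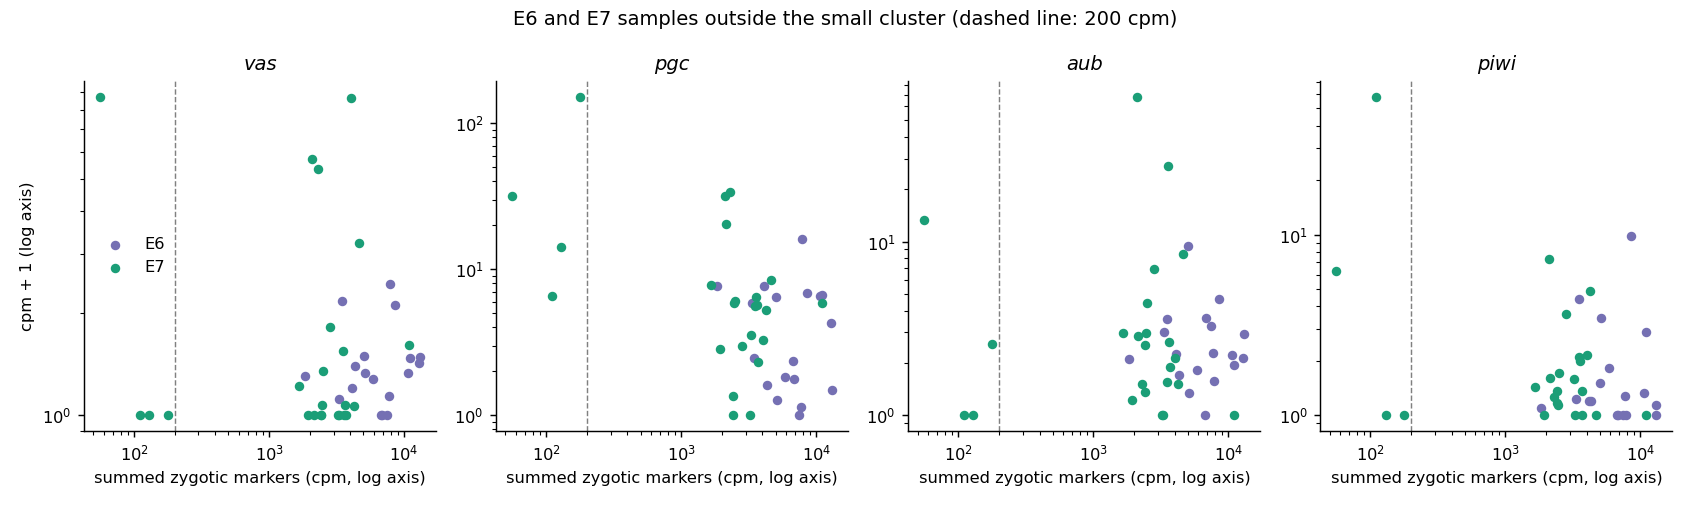
Level of vas, pgc, aub and piwi (cpm + 1, log axis) against the summed cpm of 9 zygotic markers (log axis) in the 18 E6 and 24 E7 samples outside the small cluster; the dashed line marks 200 cpm. The 4 samples to the left of the line are all of E7, and they include the highest vas, pgc and piwi sample but not the highest aub sample.

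Over the whole of embryogenesis, E8 against E1, 3 of the 8 genes fell in developing embryos, where 27.6% of all genes fell, and 1 rose, where 26.3% rose, 53.9% in all. The genes that fell were aub (above), vas by 2.94 ± 0.79 on the log2 scale (adjusted p = 0.00102) and pgc by 2.86 ± 0.71 (adjusted p = 0.000335), and the one that rose was tud. For vas 13 of 14 embryos of E8 were below the E1 median of 0.9881 cpm, and for pgc 12 of 14 were below the E1 median of 28.54 cpm, with ranges that overlapped for both. In vas, 8 of the 14 E8 embryos had no count, and the median depth at E8 was 1850355 counts. At that depth the E1 median of vas corresponds to few counts, and the part of depth in this tally was not tested. The remaining genes had values of −1.91 ± 0.89 for piwi (adjusted p = 0.0604), −1.27 ± 0.57 for AGO3 (adjusted p = 0.0514), −0.74 ± 0.41 for gcl (adjusted p = 0.116) and 0.38 ± 0.87 for spn-E. No developing E8 embryo came from the libraries E1_1 and E1_2, so that this contrast draws on those libraries only through E1 and the other stages. Without the library E2, which holds 9 of the 14 E8 embryos, the fall of pgc was 1.71 and did not pass (adjusted p = 0.232), and tud had 0.37 (adjusted p = 0.708), whereas aub and vas still passed. With DESeq2's size factors, which move the median of all genes from −0.08 to 0.54, the split over all genes was 3283 higher and 1418 lower in place of 2525 and 2656, and the same 4 genes were called in the same directions, pgc by −2.04 and tud by 1.66.

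The levels of the small cluster were set beside those of developing embryos. The cluster was delimited from expression, so these values are a description with no test. Pooled over ages, of which the sets hold different shares, the median over all 97 samples against that over all 153 developing embryos was 41.49 against 2.616 cpm for aub, 51.91 against 6.183 for AGO3, 18.56 against 4.861 for pgc, 9.071 against 3.49 for spn-E and 2.692 against 0.5085 for piwi. It was lower in the small cluster for tud, at 2.607 against 33.18 cpm, for gcl, at 23.55 against 49.51, and for vas, at 0.2188 against 0.8233. Stage by stage, the aub and AGO3 medians were higher and the tud medians lower in the small cluster at every stage, and the other genes did not keep 1 order. The pgc median was lower in the cluster at E2 (10.85 against 20.93 cpm) and higher at the other stages. The spn-E median was lower at E2 (3.413 against 7.864) and E6 (0.362 against 2.097), and that of piwi at E7 (0 against 0.3987). The gcl median was higher in the cluster at E1 (67.21 against 25.69) and E7 (38.66 against 25.94), and that of vas at E1 (1.369 against 0.9881).

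At E5, the 5 cluster samples had aub levels of 83.39, 61.63, 37.34, 31.66 and 39.62 cpm, all above the highest of the 21 developing embryos, at 15.87 cpm. The tud levels of these 5 were 0.4244, 1.304, 12.82, 2.062 and 0.7476 cpm, of which 4 were under the lowest developing embryo, at 8.176 cpm. The gcl levels of the 5 were 17.56, 13.86, 20.37, 11.89 and 2.243 cpm, against a median of 121.8 cpm in developing embryos of that stage. AGO3 was at 16.87, 56.25, 80.34, 52.16 and 107.3 cpm in the 5, and the highest developing embryo was at 20.26 cpm, so that 4 of the 5 lay above all of them.

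The 4 cluster samples of E6 had 468317 to 1381130 counts. Their AGO3 levels were 67.34, 92.54, 32.03 and 58.94 cpm, all above the highest developing E6 embryo at 19.94 cpm. Their aub levels were 0, 92.54, 4.271 and 30.49 cpm, from 0, 75, 2 and 15 counts, and so did not stand together. Their pgc levels were 224.5, 9.871, 4.271 and 69.1 cpm, and those of vas 0, 0, 0 and 75.2 cpm, the last from 37 counts. Their spn-E levels were 0.724, 13.57, 0 and 0 cpm and those of piwi 10.14, 8.637, 0 and 0 cpm.

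**Figure D4:**
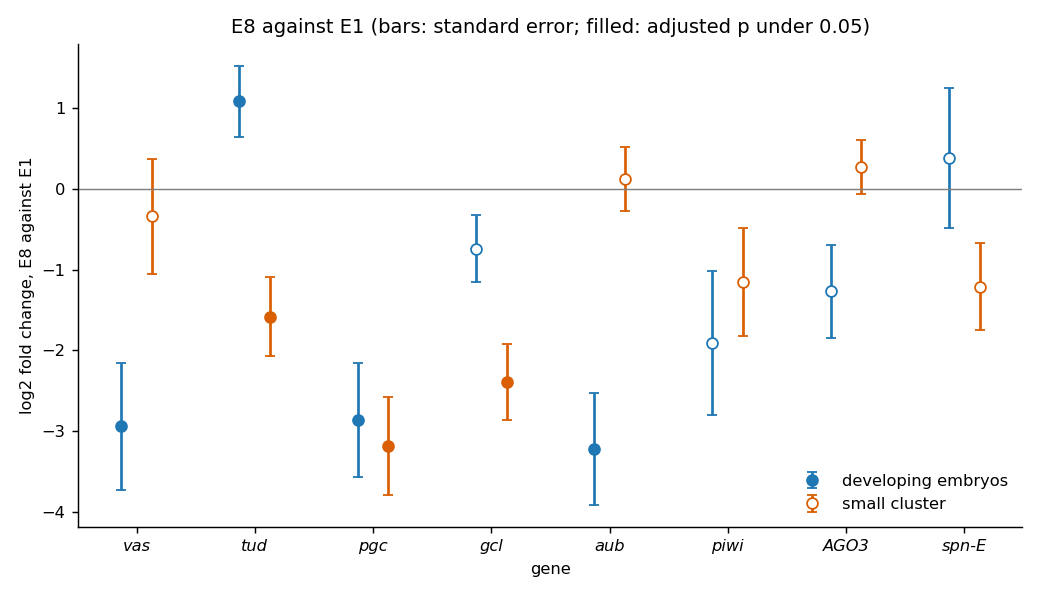
The log2 fold change of E8 against E1 for each of the 8 genes in developing embryos (blue) and in the small cluster (orange), from separate fits of edgeR's quasi-likelihood test; bars are standard errors and filled points have an adjusted p under 0.05. The pgc points lie close together at −2.86 and −3.18, the aub points are apart at −3.22 and 0.12, and the tud points lie on opposite sides of 0.

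Within the small cluster the labelled age was compared in the same way. From E1 to E8, 3 of the 8 genes fell, where 28.8% of all genes fell, and 0 rose by edgeR's quasi-likelihood test, where 18.1% rose, 47% in all. In limma on quantile-normalised values 2106 genes were higher and 2125 lower, in place of 1741 and 2770. At an unadjusted p under 0.05, 4 genes were lower, the fourth being spn-E, and 0 were higher, and neither DESeq2 nor limma called any of the 8 higher. The pgc gene had a lowest, median and highest level of 2.658, 195.8 and 1238 cpm in the 25 samples of E1 and of 0, 10.99 and 475.0 cpm in the 23 of E8, and 21 of the 23 were below the E1 median. The fall was 3.18 ± 0.61 on the log2 scale, 9.06-fold (adjusted p = 8e-06). The gcl gene had 4.735, 67.21 and 343.3 cpm at E1 and 0.6955, 11.09 and 171.1 cpm at E8, with 22 of 23 below the E1 median, and fell by 2.39 ± 0.47 (adjusted p = 1.11e-05). Both falls passed under all 13 alternatives in which scaling, filter, tool, clustering or library was varied. The tud gene fell by 1.58 ± 0.49 (adjusted p = 0.00495), from a median of 5.298 to 1.942 cpm, but not without the library E2 (−1.31, adjusted p = 0.151) or on quantile-normalised values in limma (−0.04, adjusted p = 0.94).

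For the ping-pong partners aub and AGO3 the same contrast was small. The aub median was 59.97 cpm at E1 and 56.12 cpm at E8, with a fitted difference of 0.12 ± 0.40 (adjusted p = 0.839), and the AGO3 median was 43.76 and 51.02 cpm, with 0.27 ± 0.33 (adjusted p = 0.55). The values of the other genes were −1.15 ± 0.67 for piwi (adjusted p = 0.16), −1.21 ± 0.54 for spn-E (adjusted p = 0.0565) and −0.34 ± 0.71 for vas (adjusted p = 0.738). The difference between the 2 sets in these changes was not tested, because the sets were made from expression.

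Over all stages of the small cluster, a linear trend with labelled age was fitted. It was downward for 4 of the 8 genes, where 28.9% of all genes had a downward and 17.9% an upward trend, 46.8% in all: pgc with −0.131 ± 0.0252, gcl with −0.0795 ± 0.0187, tud with −0.0691 ± 0.0204 and spn-E with −0.0614 ± 0.0222 on the log2 scale per hour (adjusted p of 6.12e-06, 0.000212, 0.00311 and 0.0173, edgeR's quasi-likelihood test). The trend of spn-E did not pass after thinning (adjusted p = 0.0515) or without the library E1_2 (adjusted p = 0.0582) or E2 (adjusted p = 0.123), and that of tud did not pass in limma (adjusted p = 0.849) or without the library E2 (adjusted p = 0.227). The stage medians of pgc, at 195.8, 10.85, 11.72, 7.27, 3.639, 39.49, 10.87 and 10.99 cpm from E1 to E8, were not a steady decline: E1 had the highest, and the other stages lay between 3.639 and 39.49 cpm. The AGO3 medians were 43.76, 39.89, 87.09, 132.9, 56.25, 63.14, 78.28 and 51.02 cpm, highest at E4.

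Related genes of the 2 pathways were counted in the same fits, in 4 lists. These lists were chosen with earlier results of these data known, so their counts beside the shares of all genes are a description. In developing embryos, E8 against E1, 4 of 10 tested genes of germ plasm assembly and translational control fell, 4 of 6 of pole cells and the germ line, 5 of 17 of cytoplasmic piRNA biogenesis and 8 of 11 of nuclear piRNA clusters and silencing, and 0 rose by edgeR's quasi-likelihood test in any of the 4. In that order the lists held 12, 8, 17 and 12 genes. Not tested were nos, cup, stil and bgcn, whose mean was not above 1 cpm, and boot, which matched no gene counted. The last 1000 exonic bases overlap other genes over 100% for cup and 37.3% for nos. At an unadjusted p under 0.05, 1 gene of the first list and 0 of the others were higher, DESeq2's Wald test called 1, 0, 1 and 0 higher, and limma 0 in each. Over all genes 27.6% fell and 26.3% rose. The median log2 fold changes of the lists were −1.08, −1.38, −0.92 and −2.37, against −0.08 over all genes. With DESeq2's size factors 1, 1, 4 and 7 fell and 1, 0, 1 and 0 rose, and over all alternatives the number that fell ran from 1 to 5, 1 to 4, 3 to 11 and 4 to 10. With the small cluster pooled in, 4 nuclear genes fell and 4 rose. In the small cluster 2, 3, 3 and 3 fell and 3, 1, 5 and 5 rose, where 28.8% of all genes fell and 18.1% rose, with medians of −0.73, −1.28, −0.20 and −0.33 against −0.23 over all genes.

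The gene of each list with the lowest fold change in developing embryos was me31B, a DEAD-box helicase of translational repression (−2.93 ± 0.39), zpg, a gap junction protein of germ cells (−4.24 ± 0.91), zuc, the endonuclease that cuts piRNA precursors (−3.84 ± 0.63), and cuff, which protects transcripts of piRNA clusters in the nucleus (−4.92 ± 1.05). For zuc the median was 60.03 cpm at E1 and 2.878 cpm at E8, and for cuff 6.107 and 0 cpm. Those with the highest did not pass: pum (0.67), wun2 (0.19), papi (0.96) and del (1.20). In the small cluster the lowest were vls, a part of the methylosome (−2.87 ± 0.55), zpg (−4.70 ± 0.76), Hen1, which methylates the 3′ end of piRNAs (−3.44 ± 0.57), and arx, a cofactor of Piwi (−4.40 ± 0.49). For arx the cluster medians were 149.4 cpm at E1 and 1.773 cpm at E8. The highest were stau, an RNA-binding protein that localises maternal RNAs (1.63 ± 0.35), bam, a differentiation factor of the germ line (1.13 ± 0.37), vret, a Tudor-domain protein (1.71 ± 0.35), and egg, a histone H3 lysine 9 methyltransferase (2.23 ± 0.38).

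Of the 44 tested genes of the lists, 9 fell in developing embryos and rose in the small cluster, where 5.35% of all genes did: stau, bam, squ, vret, zuc, Hel25E, Panx, egg and nxf2. Another 9 fell in both. The lists were chosen with earlier results of these data known, so these counts are a description and not a test for an excess. The fall of egg in developing embryos did not pass with DESeq2's size factors (adjusted p = 0.186) or Wald test (adjusted p = 0.127), after thinning (adjusted p = 0.16) or without the library E2 (adjusted p = 0.503), and the rise of bam in the cluster did not pass without the library E1_1 (adjusted p = 0.0565). The Hel25E gene encodes an RNA helicase that takes part in export of piRNA precursors. Its median was 1487 cpm at E1 and 151 cpm at E8 in developing embryos and 983.7 and 3006 cpm in the small cluster, with fold changes of −2.37 ± 0.48 and 1.89 ± 0.19. None of the 8 germ plasm and piRNA genes did this, while pgc fell in both and tud rose in developing embryos and fell in the small cluster.

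**Figure D5:**
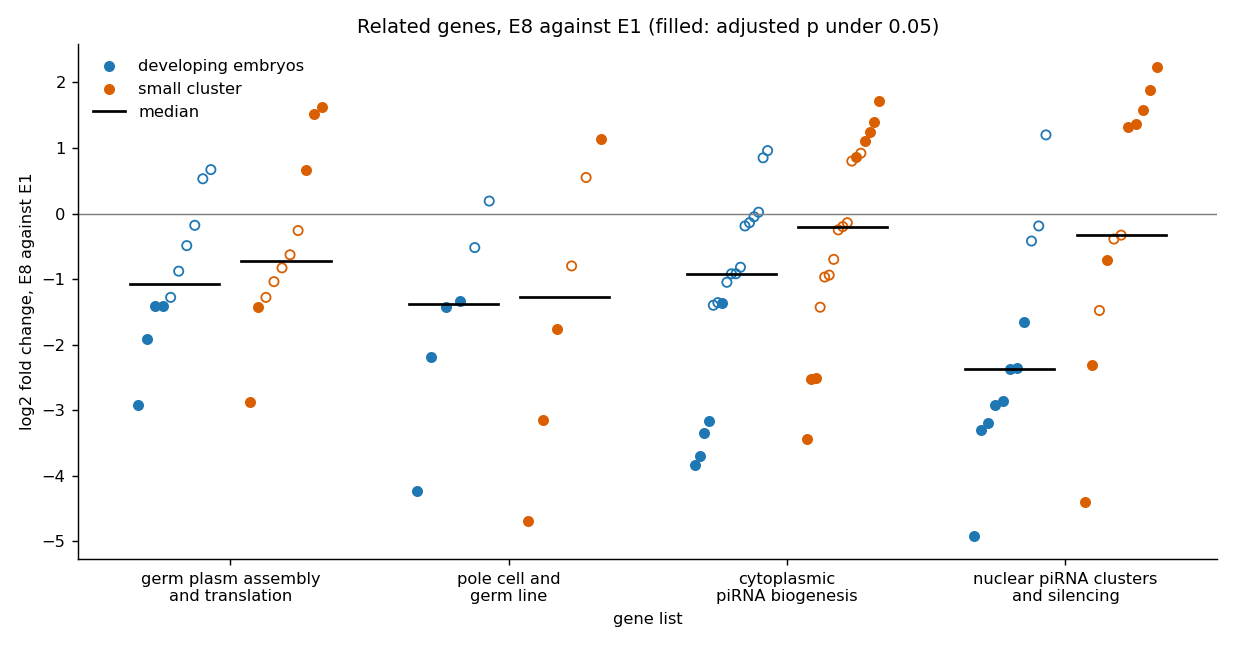
The log2 fold change of E8 against E1 for each tested gene of 4 lists of related genes, in developing embryos (blue) and the small cluster (orange); filled points have an adjusted p under 0.05 (edgeR's quasi-likelihood test) and bars are list medians. The blue median of nuclear piRNA genes is at −2.37 and the orange one at −0.33, and each list has filled orange points on both sides of 0.

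The spread between embryos of one stage was measured as the adjusted SD. It is the SD of a gene over the embryos of a stage, divided by the SD predicted from its mean over all developing embryos. That divisor was the same at every stage, so changes of level between stages were not corrected for. The adjusted SD was computed on quantile-normalised, batch-corrected log2 cpm, with values below 0 or from a count of 0 set to 0. Each value was placed as a percentile among the 9606 genes. Over the 8 stages the median percentile was 74.8 for spn-E, 63.3 for aub, 58.8 for pgc, 57.8 for gcl, 57.2 for tud, 54.6 for AGO3, 51.1 for vas and 34.6 for piwi. Only piwi, which was near the floor, lay below the middle. The percentile of a gene varied between stages: pgc was at the 93.4 percentile at E1 and 90.5 at E2 but at 12.4 to 16.6 at E4 to E6, and gcl was at 15.2 at E3 and 77.7 at E2. The pgc medians were also lower at E4 to E6, at 2.073, 1.443 and 2.364 cpm, than at E1 and E2, at 28.54 and 20.93 cpm. A change of spread apart from level was not tested. For vas at E6 and E8 and piwi at E4 the adjusted SD was 0, because every value had been set to 0. Thinned to 300000 counts per embryo, tud was at a median percentile of 36 and piwi at 75.7. With the median absolute deviation in place of the SD the order was another, with AGO3 at 81.8, tud at 55.2, gcl at 52.1, pgc at 47.3, spn-E at 23.1, aub at 16.8, vas at 9.6 and piwi at 0.

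Across the 153 developing embryos each gene was set beside all genes outside the lists. Pearson correlation was taken on the same quantile-normalised, batch-corrected log2 cpm as the adjusted SD. The gene with the highest correlation was Smyd4-4 for vas (0.63), chrb for tud (0.60), CG30105 for pgc (0.77), Surf4 for gcl (0.57), MAGE for aub (0.74), CG15128 for piwi (0.74), nAChRalpha4 for AGO3 (0.54) and pie for spn-E (0.67). For vas and piwi every value was set to 0 in some stages, so their correlations can rest on few embryos. These values are a description over 153 embryos that share stages, libraries and depth. Among the 8 genes themselves, with stage and library means removed, the highest correlation of log2(cpm + 1) was 0.35, between tud and gcl, over the same 153 embryos, and 0.24, between tud and spn-E, over the 97 of the small cluster.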

How the data were processed

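The authors sequenced 288 single embryos in 4 BRB-seq libraries, aligned reads with STAR to BDGP6 with Ensembl release 91 annotation and counted them per gene with HTSeq, and the deposited table holds raw counts. The strand setting is not given in the sources used here. The 138 identifiers without a match in Ensembl release 115 hold 1.43% of the counts. Samples with at least 300000 counts on protein-coding genes and 4500 genes were kept. The small cluster was rebuilt by multidimensional scaling of 1 minus the Spearman correlation (below −0.025 on the first axis and above 0 on the second). Genes with a mean above 1 cpm were tested with edgeR 4.0.16 (TMM, stage and library as terms, separate fits for each set) in R 4.3.3, with Benjamini-Hochberg adjustment over 9606 genes and calls at 0.05. DESeq2 1.42.0, limma 3.58.1 after ComBat (sva 3.50.0), other clusterings, thinning (vegan 2.7.1) and leaving out libraries were alternatives. The test was also run on simulated counts with known changes. These had the same spread setting for every gene, no library effect and no outlying embryo. That run therefore does not cover calls that depend on a library or a single embryo. For 1 E7 sample the labels conflict on age, and its title was used. The labels do not say which samples share a cage, so that p-values measure the spread between these samples. The 8 genes and the related lists were chosen with earlier results of these data known, and named genes of the lists are those with the lowest and highest fold change.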

Additional observations from a re-analysis of the deposited data

Results flagged for a closer look

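In groups of 4 to 10 samples, all of them stages of the small cluster, the highest or lowest sample of a gene was compared with its nearest neighbour. Of 40 groups, 6 held a sample farther away than Dixon's critical value. That value assumes normally distributed data, for which about 1 in 20 groups, or 2, would be flagged. Levels in cpm with many zeros are not of that kind, and groups of different genes share samples. The 6 are therefore a list for a closer look and not an excess over 2. For vas, 1 of 4 samples of E6 was at 75.2 cpm with the others at 0, and 1 of 9 samples of E7 was at 17.75 cpm with the nearest at 0.9438 cpm. Both belonged to the library E2 and had 492031 and 732384 counts. For tud, 1 of 9 samples of E3 was at 158.8 cpm with the nearest at 15.42 cpm, and 1 of 9 of E7 at 24.5 cpm with the nearest at 4.119 cpm, both of the library E1_2. For aub, 1 of 9 samples of E3 was at 0 cpm, from 956128 counts, with the nearest at 17.46 cpm. For gcl, 1 of 5 samples of E5 was at 2.243 cpm with the nearest at 11.89 cpm. Why these samples stood apart was not tested.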

How the results depend on the processing

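The number of the 8 genes called from E1 to E2, 1 in the report, was 4 with all samples that passed quality control, 2 with clustering by Pearson correlation, with embryos most alike to their own stage or in limma, and 0 after thinning or without library E1_1 or E2. From E2 to E3 it was 3, and 1 without library E2, 2 with size factors, all samples, thinning or without library E1_1 or E1_2, and 4 in limma; from E3 to E4 it was 0, and 2 in limma. From E4 to E5 it was 2, and 1 with all samples, own-stage embryos, limma, thinning or without library E1_1, E2 or E3. From E5 to E6 it was 1, and 0 with size factors, thinning or without library E1_1, E1_2 or E2. From E6 to E7 it was 4, and 0 with all samples, 2 with own-stage embryos or without library E2, 1 in limma or after thinning, and 2 without samples under 200 cpm of zygotic markers. From E7 to E8 it was 2, and 1 with size factors, own-stage embryos, thinning or without library E1_1 or E1_2, and 0 in limma, without library E3 or without the samples under 200 cpm. From E1 to E8 it was 4 in developing embryos, and 2 with all samples and 7 with own-stage embryos or limma. It was also 6 with clustering by Pearson correlation, 5 without a library term, library E3 or the samples under 200 cpm, and 3 without library E1_1. In the small cluster it was 3, and between 2 and 4 under the alternatives. The age trend of the small cluster had 4, and 2 without library E2, 3 in limma or after thinning, and 5 with DESeq2's Wald test or without library E1_1. The cause was not tested.

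Directions turned with all samples, where the small cluster is pooled in, for vas from E6 to E7 (−0.24), piwi from E7 to E8 (0.10) and, from E1 to E8, spn-E (−0.88), zuc (0.49), vret (1.15), Hel25E (0.98), egg (1.30), del (−0.91) and papi (−0.35). In developing embryos, E8 against E1, spn-E also turned with own-stage embryos (−3.33), limma (−1.48), without library E2 (−2.97) and without the E8 embryo with the most spn-E (−2.29). At the same contrast gcl turned with own-stage embryos (0.26), del without library E2 (−1.67) and wun2 without library E3 (−0.10) or the samples under 200 cpm (−0.02). In the small cluster, vas turned with no library term (0.42), thinning (0.85) and without library E3 (0.66), aub without library E1_2 (−0.01) and AGO3 without library E2 (−0.21). The genes in this paragraph that changed direction and had passed the test were vas from E6 to E7, piwi from E7 to E8, zuc, vret, Hel25E and egg. The falls of aub (−0.34, adjusted p = 0.596) and vas (−0.61, adjusted p = 0.343) from E1 to E8 did not pass with all samples (edgeR). Leaving out single embryos or samples under 200 cpm was chosen after seeing the data. Among leave-one-out fits, 12 kept their call, 8 lost it and 1 turned. No paired analysis was possible, because each sample was 1 whole egg taken at 1 age. The labels give well positions and no replicate numbers. Counts near 0 for vas and piwi limit what their tests can show.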
